A study of Homo sapiens with 4 samples.

Results

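The RNA exosome is the main machine of human cells for degrading and trimming RNA from the 3′ end. Its core is a ring of proteins related to the bacterial enzyme RNase PH, closed on 1 side by a cap of RNA-binding proteins, and RNA is threaded through this barrel towards nucleases bound to it. In the nucleus it processes ribosomal and small nucleolar RNA precursors and removes transcripts made upstream of promoters, and in the cytoplasm it degrades messenger RNA. The genes EXOSC1 to EXOSC10 encode the cap (EXOSC1, EXOSC2 and EXOSC3), the ring (EXOSC4 to EXOSC9) and the nuclear exonuclease EXOSC10. Accessibility of their promoters was examined in HEK293T cells with and without overexpression of MORC2. The 10 promoters were taken from a table of 28775 by the Entrez identifier of the gene, and all 10 were retained by the filter on low counts, among 23407 promoters tested. The family was chosen by the values of EXOSC6 in these same libraries, since its promoter stood out as raised after scaling on abundance. The difference of EXOSC6 between the groups is therefore described here with no test, while the other 9 subunits follow from their names.

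HEK293T is a cell line from human embryonic kidney, widely used for transfection, in which the large T antigen of SV40 is expressed. Accessibility was measured with ATAC-seq, in which the transposase Tn5 cuts open DNA and adds sequencing adapters to it. Control cells were wild-type HEK293T cells given lipofectamine, a transfection reagent (n = 2). Overexpression cells were wild-type HEK293T cells transfected with a plasmid carrying wild-type MORC2 fused to a monomeric green fluorescent protein (n = 2), on top of their own MORC2. The study's methods name a transfection of a few days, the share of cells that took up the plasmid is not stated there for these libraries, and neither they nor the labels say whether an empty plasmid was given to the controls. The study calls replicates of its ATAC-seq biological, though not expressly those of these groups, and neither it nor the labels say that these came from separate cultures or transfections. The p-values measure the spread between these libraries, which may be technical. That spread was pooled over promoters, so the replicates of a single promoter had little or no weight of their own in it.

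Total promoter counts ranged from 3734519 to 10255182 per library. Promoters of the mitochondrial genome took 51.9% and 55.6% of counts in control and 74.7% and 73.8% in overexpression, so that nuclear promoters held 3675088 to 4928862 counts in control and 979895 to 1826951 in overexpression. Log2 fold changes also moved with abundance. In 4 equal bins of promoters from the lowest to the highest abundance, the median under TMM (trimmed mean of M-values, a scaling of each library by 1 factor) was 0.39, 0.13, −0.05 and −0.13. Scaling by a loess curve on abundance removes that trend, and values of the subunits are given under both. Of the subunits, 4 lay in the highest bin, 5 in the next and EXOSC9 in the second lowest. In bulk libraries, a promoter open in fewer cells and one less open in every cell cannot be told apart. Depth and the mitochondrial share moved with the groups, and their part in the differences below was not tested.

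The sequences of 4 subunit promoters are shown, because EXOSC6 and EXOSC5 carried the differences described below, EXOSC8 encodes the ring partner of EXOSC5, and EXOSC10 is the nuclease of the family. Each line gives the 250 bases before the transcription start, 5′ to 3′ on the strand of the gene, from RefSeq on GRCh38.p14, whereas the counts were made on the assembly CHM13. Capitals mark matches, on either strand, to the motifs listed in the next paragraph.
EXOSC6, GRCh38.p14, chr16:70251941-70252190, minus strand: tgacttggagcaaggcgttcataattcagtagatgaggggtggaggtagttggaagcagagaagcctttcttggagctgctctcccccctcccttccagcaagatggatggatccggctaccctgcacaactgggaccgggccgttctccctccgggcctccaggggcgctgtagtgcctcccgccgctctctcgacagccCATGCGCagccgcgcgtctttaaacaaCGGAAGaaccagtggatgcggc
EXOSC5, GRCh38.p14, chr19:41397360-41397609, minus strand: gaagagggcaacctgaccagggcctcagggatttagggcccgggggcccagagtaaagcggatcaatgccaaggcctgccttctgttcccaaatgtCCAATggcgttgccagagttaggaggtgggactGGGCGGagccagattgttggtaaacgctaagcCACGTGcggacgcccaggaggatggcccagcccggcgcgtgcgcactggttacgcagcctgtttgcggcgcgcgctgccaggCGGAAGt
EXOSC8, GRCh38.p14, chr13:37000536-37000785, plus strand: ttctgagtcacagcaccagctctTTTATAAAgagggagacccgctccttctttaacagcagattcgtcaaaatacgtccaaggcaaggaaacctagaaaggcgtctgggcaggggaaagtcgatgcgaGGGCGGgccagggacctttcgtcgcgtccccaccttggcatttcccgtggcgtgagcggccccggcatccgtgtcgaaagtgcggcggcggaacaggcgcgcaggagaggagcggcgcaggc
EXOSC10, GRCh38.p14, chr1:11099870-11100119, minus strand: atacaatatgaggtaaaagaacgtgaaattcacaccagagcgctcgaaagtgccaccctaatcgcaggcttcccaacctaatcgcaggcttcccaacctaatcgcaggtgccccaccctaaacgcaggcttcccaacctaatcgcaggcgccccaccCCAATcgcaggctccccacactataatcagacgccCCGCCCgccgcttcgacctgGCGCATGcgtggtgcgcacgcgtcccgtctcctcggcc

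RefSeq promoter sequences were at hand for 8 of the 10 subunits, with EXOSC1 and EXOSC4 missing from the table. EXOSC3 had 2 entries, of which only the first was searched. The EXOSC6 window had a GC content of 60.8%, close to the median of 58% over 27303 promoters, and 15 CpG dinucleotides, a ratio of 0.649 to the number its base composition predicts. That ratio was the lowest of the 8 subunits, which reached 1.08 at EXOSC10, while the median over all promoters was 0.556. The motif CGGAAG, the core recognised by ETS factors, was in the windows of EXOSC6 and EXOSC5 alone among the 8, at 22 and 7 bases before the start, and in 16.8% of all promoters. GCGCATG, a part of the NRF1 motif, was in EXOSC6 and EXOSC10 and in 3.96% of all promoters. GGGCGG (the GC box bound by SP factors) was in 6 of the 8, against 42.3% of all promoters, and EXOSC6 and EXOSC9 were the subunits without it. CCAAT (bound by NF-Y) was in 4 of the 8, against 33% of all promoters, and EXOSC6 was not among them. CACGTG was in EXOSC5 alone (6.49% of all promoters), and TATAAA in EXOSC8 alone (11.1% of all promoters), where it overlapped itself on opposite strands far from the start. TCGCGA and ATGGCGG were in none of the 8 windows, and in 2.67% and 2.83% of all promoters. CACGTG and TCGCGA read the same on both strands and were counted once. These matches describe letters in a window and not binding.

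In the control cells the subunit promoters spanned a range of levels. Values are CPM (counts scaled to a common library total) after TMM, for a window the study set to 2 kb around each start, and levels of different promoters are compared on the assumption that each row counts that whole window. EXOSC1 and EXOSC8 were the most open, each at 32.7, with SDs of 3.42 and 0.513 (n = 2), and their replicates overlapped. EXOSC4 followed at 27.3 ± 1.68 and EXOSC6 at 23.6 ± 1.67 (SD, n = 2), each apart from its neighbours in the order. EXOSC7 was at 16.9 ± 0.313, just above EXOSC2 at 16.2 ± 0.00220. EXOSC2, EXOSC5 at 15.4 ± 1.15 and EXOSC10 at 15.0 ± 0.0931 had no clear order, as the replicates of EXOSC5 overlapped both others. EXOSC3 was at 12.6 ± 0.394, close to the median of 12.1 over all promoters tested, and EXOSC9 was the least open at 7.18 ± 0.179 (SD, n = 2). Ordering by the share of nuclear counts gave the same ranks.

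**Figure D1:**
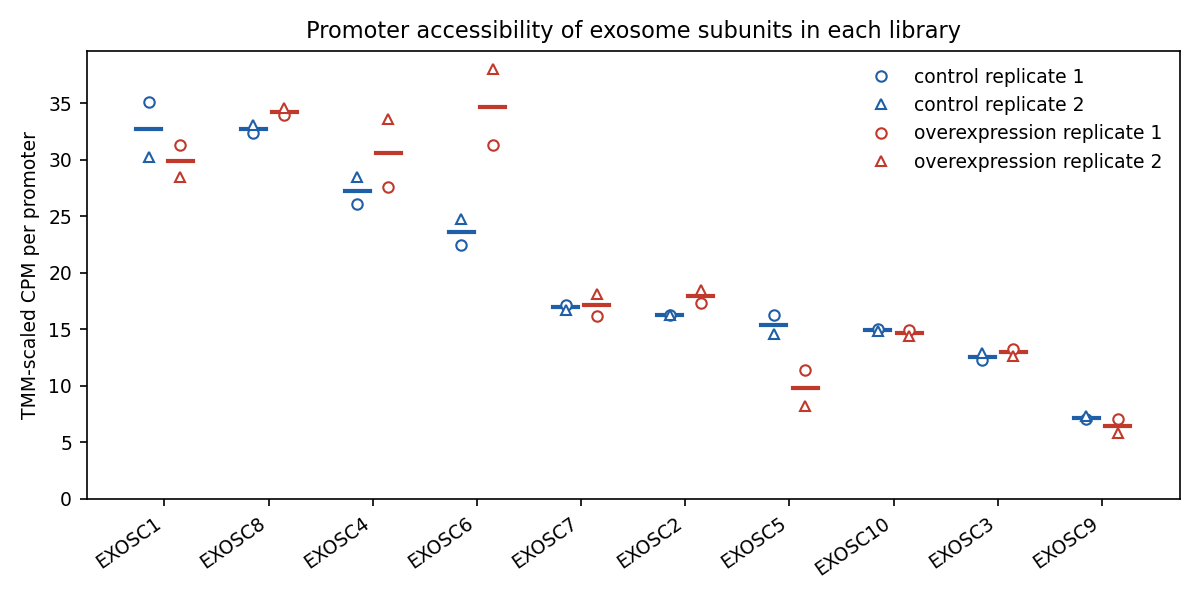
TMM-scaled CPM of each subunit promoter (y axis) in the 4 libraries, with subunits in order of their control mean (x axis), control in blue and overexpression in red, circles for replicate 1, triangles for replicate 2 and bars for the mean of each group (n = 2). EXOSC6 lies below EXOSC1, EXOSC8 and EXOSC4 in control, at 22.4 and 24.8, and has the highest overexpression mean, at 31.3 and 38.0, while EXOSC5 drops from 16.2 and 14.6 to 11.4 and 8.22.

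EXOSC6, the ring subunit known in yeast as Mtr3, is encoded by a gene that follows AARS1 in the gene table. No other gene with a RefSeq promoter sequence starts within 2000 bases of its start. Replicates 1 and 2 of the control gave 315 and 258 counts at its promoter, and those of overexpression gave 168 and 111. In TMM-scaled CPM these were 22.4 and 24.8 in control, and 31.3 and 38.0 in overexpression. Both overexpression libraries lay above both control libraries, as at 24.8% of all promoters tested. The mean went from 23.6 ± 1.67 to 34.7 ± 4.75 (SD, n = 2). The fitted log2 fold change was 0.53 (SE 0.124), or 1.44-fold, under TMM and 0.64 (SE 0.121), or 1.56-fold, under loess scaling. It stood at percentile 87.3 of all fitted log2 fold changes under TMM and at percentile 97.5 under loess scaling. The median of its abundance bin, the highest, was −0.13 under TMM. The log2 ratios of its TMM-scaled CPM of each overexpression library over each control library were 0.34, 0.48, 0.62 and 0.76. Between replicates they were 0.14 in control and 0.28 in overexpression, below each of the 4 pairs. The choice of EXOSC6 for its rise in these libraries favours such an order, so it is a description only. Counting error alone spanned 91.3 to 133.7 counts (95% exact Poisson interval) in the shallowest library and 281.2 to 351.8 in the deepest.

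The share of EXOSC6 within the family is the same under any scaling of a library by 1 factor, though not under loess scaling. Of the summed counts of the 10 subunits, EXOSC6 held 11.2% (95% exact binomial interval from 10.1% to 12.4%) in control replicate 1 and 12.4% (from 11.1% to 13.9%) in control replicate 2. It held 15.3% (from 13.2% to 17.6%) in overexpression replicate 1 and 17.9% (from 15.0% to 21.1%) in overexpression replicate 2. These shares come from the same counts by which EXOSC6 was chosen, so they describe its rise and add no support to it. The order of the groups was the same without any scaling, although the intervals of control replicate 2 and overexpression replicate 1 overlapped. Duplicates had been removed by the authors, no molecular identifiers are named, and all such intervals cover counting error only. EXOSC1, EXOSC4 and EXOSC8, the subunits of the same abundance bin, held 15.2% to 17.6%, 13.03% to 14.3% and 16.2% to 16.6% in control and 13.4% to 15.3%, 13.5% to 15.8% and 16.3% to 16.6% in overexpression. EXOSC6 passed from the smallest of these 4 shares in both control libraries to the largest in overexpression replicate 2.

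**Figure D2:**
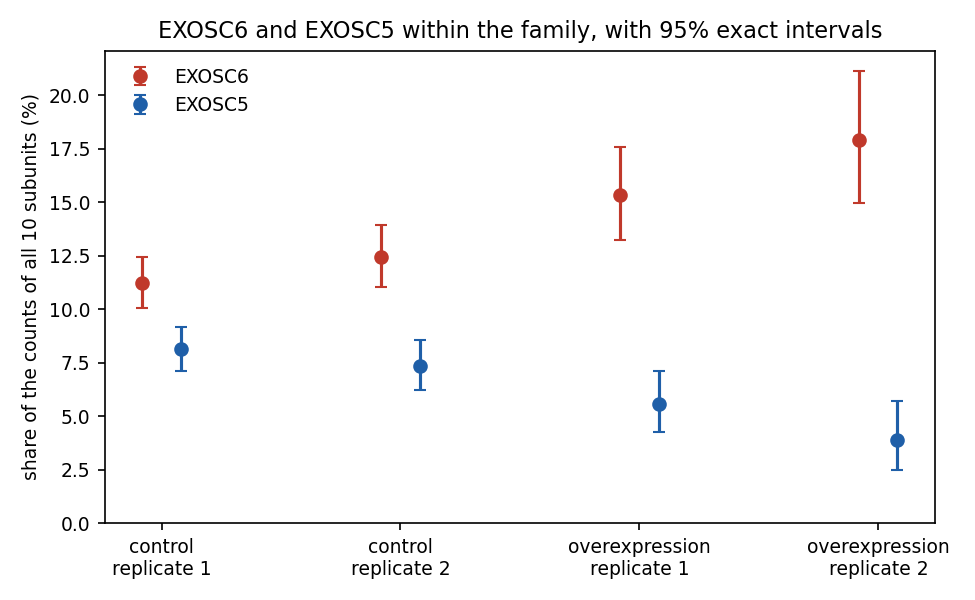
Share of the summed counts of the 10 subunit promoters held by EXOSC6 (red) and EXOSC5 (blue) in each library (x axis), in percent (y axis), with 95% exact binomial intervals. EXOSC6 lies at 11.2% and 12.4% in control and at 15.3% and 17.9% in overexpression, and EXOSC5 at 8.12% and 7.33% in control and at 5.57% and 3.87% in overexpression.

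EXOSC5, the ring subunit known in yeast as Rrp46, moved the other way. Its promoter had counts of 228 and 152 in the controls against 61 and 24 after overexpression. The TMM-scaled CPM was 16.2 and 14.6 in control and 11.4 and 8.22 in overexpression, so that neither overexpression value reached the lower control value. The mean fell from 15.4 ± 1.15 to 9.80 ± 2.22 (SD, n = 2). The log2 ratios of each overexpression library over each control library were −0.36, −0.51, −0.83 and −0.98. Between replicates they were −0.15 in control and −0.47 in overexpression, the latter larger in size than −0.36. By edgeR, this was −0.60 on the log2 scale (SE 0.177), with an adjusted p of 0.0401. Under loess scaling the log2 fold change was −0.58 (SE 0.171) and the adjusted p of edgeR was 0.143, above the threshold of 0.05. The call was lost without any single library. The log2 fold change was −0.51 (adjusted p 0.24) without control replicate 1 and −0.67 (adjusted p 0.0592) without control replicate 2. It was −0.92 (adjusted p 0.0843) without overexpression replicate 1 and −0.46 (adjusted p 0.337) without overexpression replicate 2. The share of EXOSC5 in the family was 8.12% (95% exact binomial interval from 7.14% to 9.19%) and 7.33% (from 6.25% to 8.54%) in control. In overexpression it was 5.57% (from 4.28% to 7.09%) and 3.87% (from 2.50% to 5.71%).

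EXOSC5 shares its promoter region with BCKDHA, which encodes a subunit of the branched-chain keto acid dehydrogenase and is transcribed in the opposite direction from a nearby start. The BCKDHA promoter had counts of 224 and 146 in the controls against 60 and 22 after overexpression, within 6 counts of EXOSC5 in each library. Its log2 fold change was −0.61 (SE 0.180, edgeR adjusted p 0.0383). With starts this close, windows of this width overlap and can count the same fragments, and the promoters of EXOSC5 and BCKDHA cannot be told apart in these counts.

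Of the 9 subunits other than EXOSC6, EXOSC5 alone had an adjusted p under 0.05 in edgeR under TMM, as lower, and none did under loess scaling. Of all promoters tested, 2.47% were called under TMM, 1.16% as higher and 1.3% as lower, and 0.239% were called under loess scaling. An unadjusted p under 0.05 was found at 1 of the 9 under TMM (EXOSC5) and at 2 under loess scaling (EXOSC4 and EXOSC5), against 17.2% and 10.3% of all promoters. DESeq2 without independent filtering called 0 of the 9. The groups did not overlap in TMM-scaled CPM at 3 of the 9, whereas 49.7% of all promoters showed such a separation. Overexpression lay above control at EXOSC2 and EXOSC8, as at 24.8% of all promoters, and below it at EXOSC5, as at 24.9%. For the 9 subunits other than EXOSC6 the median log2 fold change was −0.0041 under TMM and 0.049 under loess scaling, against 0.0099 and 0.0013 over all promoters tested. EXOSC6 lay 0.53 above the median of the other 9 under TMM.

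**Figure D3:**
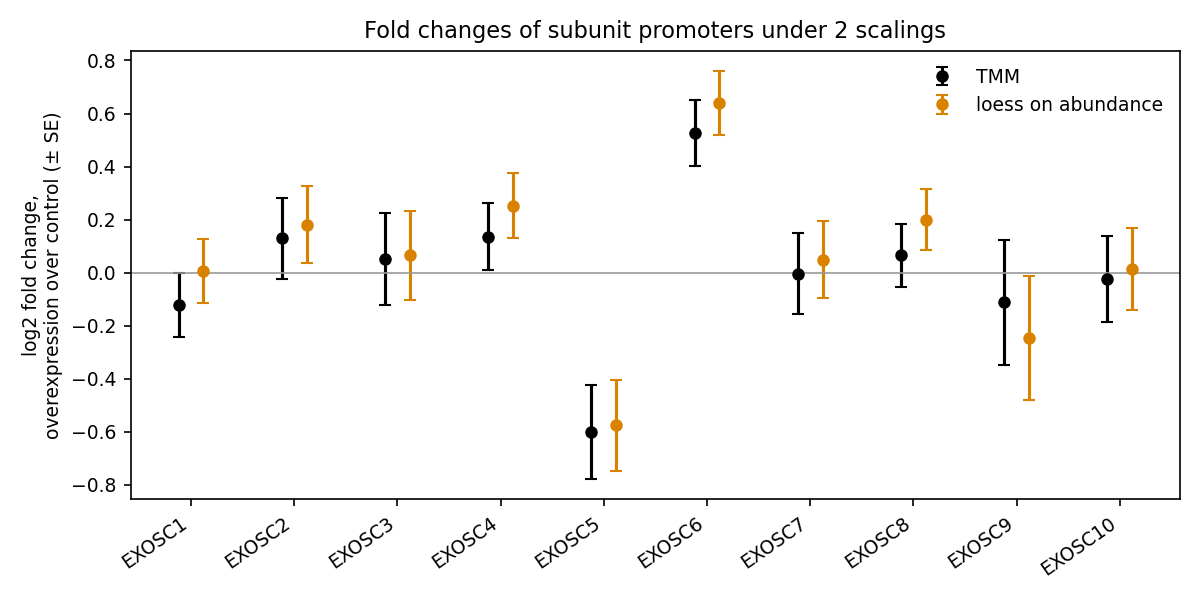
Fitted log2 fold change of overexpression over control (y axis) for each subunit (x axis), with bars of ± 1 SE, under TMM (black) and under loess scaling on abundance (orange). EXOSC6 lies at 0.53 and 0.64, EXOSC5 at −0.60 and −0.58, and the other 8 between −0.12 and 0.14 under TMM and between −0.25 and 0.25 under loess scaling.

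The remaining ring subunits did not pass the test. In the assembled ring EXOSC6 pairs with EXOSC7, EXOSC5 with EXOSC8, and EXOSC4 with EXOSC9. EXOSC7 had counts of 241 and 174 in the controls against 87 and 53 after overexpression, and its log2 fold change was −0.0041 (95% interval from −0.30 to 0.29). Its overexpression values of 16.2 and 18.2 TMM-scaled CPM enclosed the control values of 17.2 and 16.7. EXOSC8 had counts of 454 and 344 in the controls against 182 and 101 after overexpression, which in TMM-scaled CPM was 32.3 and 33.1 against 33.9 and 34.6. The groups did not overlap, but the log2 fold change of 0.065 (SE 0.118) had an edgeR adjusted p of 0.823.

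EXOSC4 had counts of 366 and 296 in the controls against 148 and 98 after overexpression. In TMM-scaled CPM it was 26.1 and 28.5 in control and 27.6 and 33.6 in overexpression, so the groups overlapped. Under TMM, EXOSC4 differed by 0.14 on the log2 scale (SE 0.125, edgeR adjusted p 0.605). Under loess scaling it was 0.25 (SE 0.122), with an unadjusted edgeR p of 0.0411 and an adjusted p of 0.456. EXOSC9, the autoantigen PM/Scl-75 of patients with overlapping muscle and skin disease, had counts of 99 and 76 in the controls against 38 and 17 after overexpression. Its log2 fold change of −0.11 had a 95% interval from −0.57 to 0.35, the widest of the family.

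The cap subunits bind RNA at the entrance of the barrel, and mutations in EXOSC3 cause a pontocerebellar hypoplasia. EXOSC1 had counts of 493 and 315 in the controls against 168 and 83 after overexpression. Its TMM-scaled CPM was 35.1 and 30.3 in control and 31.3 and 28.4 in overexpression. The groups overlapped, and the fitted change was −0.12 on the log2 scale (SE 0.121, edgeR adjusted p 0.639). The control replicates of EXOSC1 differed by −0.21 on the log2 scale, more than the fitted difference between the groups. EXOSC2 had counts of 228 and 169 in the controls against 93 and 54 after overexpression. Its TMM-scaled CPM was 16.2 in both control libraries and 17.3 and 18.5 in overexpression, a log2 fold change of 0.13 (SE 0.151, edgeR adjusted p 0.705). EXOSC3 had counts of 173 and 134 in the controls against 71 and 37 after overexpression, and its log2 fold change was 0.052 (95% interval from −0.29 to 0.39). None of the 3 cap promoters passed the test under either scaling.

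EXOSC10, the nuclease known in yeast as Rrp6, had counts of 211 and 155 in the controls against 80 and 42 after overexpression. Its TMM-scaled CPM was 15.0 and 14.9 in control and 14.9 and 14.4 in overexpression. The log2 fold change was −0.024 (95% interval from −0.34 to 0.29, edgeR adjusted p 0.957).

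Several subunit promoters overlap those of other genes. Among genes with a RefSeq promoter sequence, another starts within 2000 bases at 5 of the 10 subunits. These neighbours are ZDHHC16 at EXOSC1, BCKDHA at EXOSC5, ZDHHC3 at EXOSC7, ALG5 at EXOSC8 and the antisense gene EXOSC10-AS1 at EXOSC10. For EXOSC1 and EXOSC4, which had no such sequence, the strand was not given and either end of the gene was allowed. ZDHHC3 had 241, 174, 86 and 53 counts in the order of the libraries above, almost those of EXOSC7. The values of these 5 subunits hence describe a region shared with a neighbour. EXOSC2, EXOSC3, EXOSC4, EXOSC6 and EXOSC9 had no such neighbour, though a gene without a promoter sequence could not be found by this search.

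**Figure D4:**
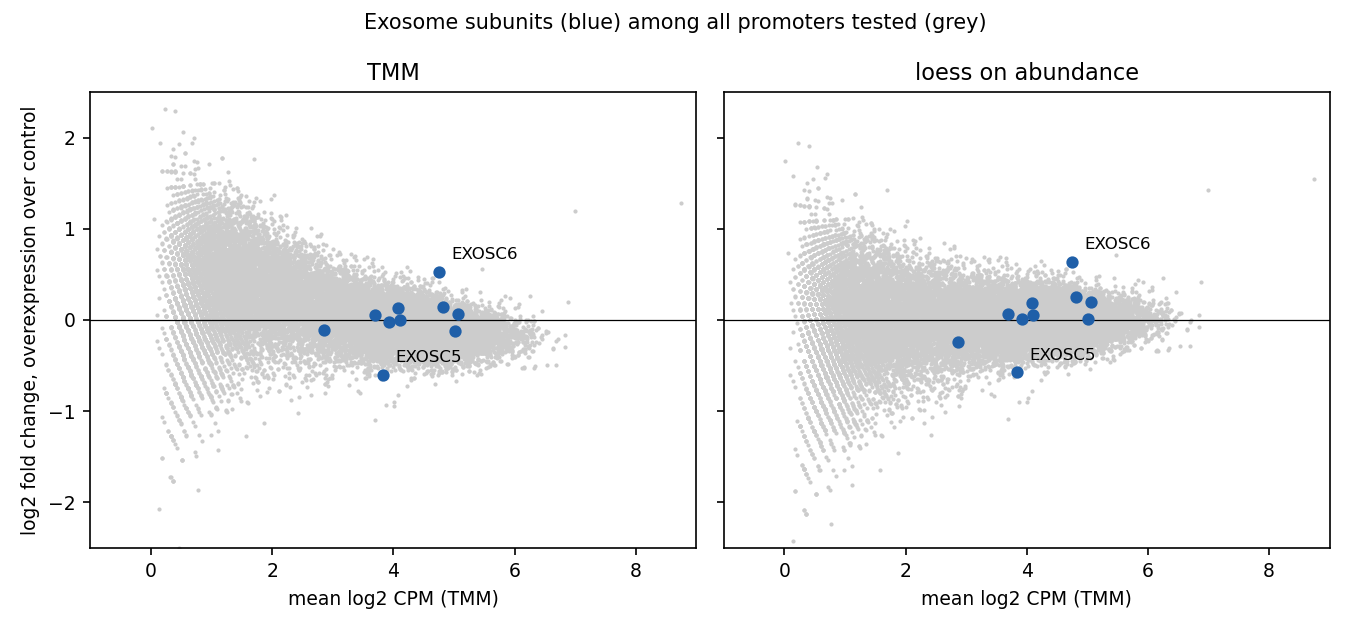
Log2 fold change of overexpression over control (y axis) against mean log2 CPM (x axis) for all 23407 promoters tested (grey) and the 10 subunits (blue), under TMM (left) and loess scaling (right). EXOSC6 lies near the upper edge of promoters of like abundance in both panels and EXOSC5 near the lower edge, and 2 promoters under TMM, 3 under loess scaling and 36 of very high abundance lie outside the axes.

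The promoters most like EXOSC6 were sought by the smallest distance of log2 CPM over the 4 libraries. These were LINC00574 at a distance of 0.234, MIR4519 at 0.265, DHX30 at 0.278, CDC123 at 0.298 and WDR38 at 0.322. Likeness was measured over control and overexpression libraries together, so the choice itself favours promoters with a difference like that of EXOSC6. Their log2 fold changes, given as a description, lay between 0.24 at WDR38 and 0.35 at LINC00574.

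The nucleases and cofactors with which the exosome works were examined as a list of 23. It holds the catalytic subunits DIS3 and DIS3L, the nuclear cofactors C1D, MPHOSPH6 and MTREX, the adaptor complexes TRAMP, NEXT and PAXT that bring nuclear RNA to the exosome, the cytoplasmic SKI complex, and proteins that link the exosome to the RNA cap. None of the 23 was called by edgeR under TMM or loess scaling, and 2 had an unadjusted p under 0.05 under each scaling, against 17.2% of all promoters under TMM and 10.3% under loess scaling. DESeq2 without independent filtering also called 0. The median log2 fold change was −0.13 under TMM and −0.0033 under loess scaling. The 3 TRAMP promoters (TENT4A, TENT4B and ZCCHC7) lay between −0.27 and −0.14 under TMM and between −0.14 and −0.11 under loess scaling. Medians by role under TMM were −0.19 for TRAMP, −0.15 for NEXT, −0.13 for the cap link, −0.12 for SKI and −0.061 for PAXT. They were 0.02 for the catalytic subunits and 0.15 for the nuclear cofactors. Groups did not overlap at 12 of the 23, against 49.7% of all promoters. Overexpression lay below control at 10 of the 23, against 24.9% of all promoters, and above it at 2, against 24.8%. These shares cover all abundance bins. All cofactors but C1D and ZCCHC7 lay in the 2 highest bins, whose medians under TMM were −0.05 and −0.13.

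NCBP1, the larger subunit of the nuclear cap-binding complex, had the lowest fitted value of the list. It had counts of 524 and 407 in the controls against 161 and 82 after overexpression, and its TMM-scaled CPM was 37.3 and 39.1 in control and 30.0 and 28.1 in overexpression. Its fitted change on the log2 scale was −0.38 (SE 0.12, edgeR adjusted p 0.0566) under TMM and −0.24 (adjusted p 0.459) under loess scaling. C1D, which binds EXOSC10 and structured RNA, had the highest fitted value, 0.35 (SE 0.212, edgeR adjusted p 0.382). It had counts of 95 and 87 in the controls against 50 and 29 after overexpression. DIS3, the main nuclear nuclease of the complex, was named after its values were seen, as were the TRAMP promoters. It was the most open promoter of both lists at 51.9 ± 1.54 TMM-scaled CPM in control and 46.2 ± 0.154 in overexpression (SD, n = 2), and its log2 fold change was −0.17 (SE 0.106, edgeR adjusted p 0.421).

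**Figure D5:**
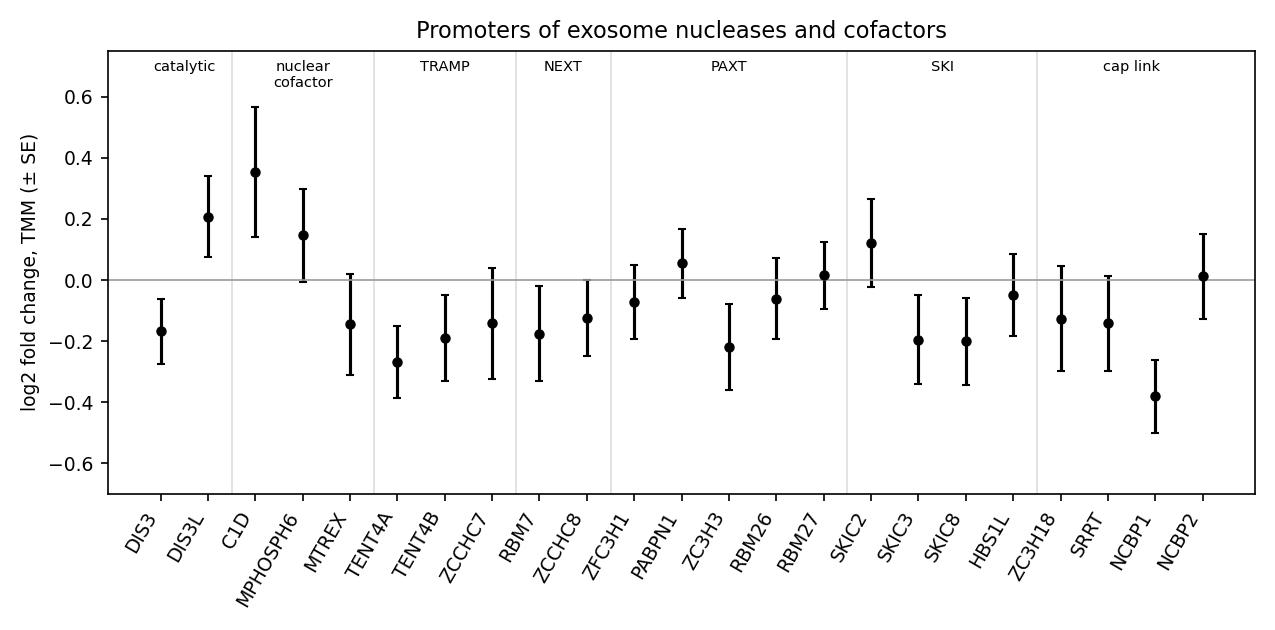
Fitted log2 fold change of overexpression over control under TMM (y axis), with bars of ± 1 SE, for the 23 nuclease and cofactor promoters (x axis), grouped by complex. Values lie between −0.38 at NCBP1 and 0.35 at C1D, and none has an adjusted p under 0.05.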

How the data were processed

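ATAC-seq of HEK293T cells was analysed in 2 control and 2 MORC2 overexpression libraries, grouped by sample title. According to the study's methods, the authors trimmed paired reads, aligned them with bowtie2 to CHM13, kept well-mapped proper pairs, removed duplicates with Picard and counted fragments by their midpoint. The authors deposited whole-number counts per promoter, 1 row per Entrez gene, without normalisation. That each row counted the whole 2 kb promoter window is an assumption. No shift for the Tn5 offset was described. The deposited peak lists were not used, as no gene positions of that assembly were at hand to place them.

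Gene symbols came from a RefSeq table of GRCh38.p14, where 28763 of the 28775 Entrez identifiers had a symbol and 12 had none. Counts were filtered with filterByExpr and scaled by TMM in edgeR 4.0.16 (R 4.3.3). All promoters were fitted together, with quasi-likelihood F-tests (legacy form, two-sided, no covariate) and Benjamini-Hochberg adjustment over all promoters at 0.05. The common biological coefficient of variation was 4.28%. Prior degrees of freedom were infinite under TMM and 111.9 under loess scaling, so the spread of a single promoter had no weight under TMM. Intervals of log2 fold changes are normal, at 95%. Loess scaling fitted log counts of each library on mean abundance (span 0.3). The fit was tested on simulated data. Alternatives covered scaling, filters, tests (DESeq2 1.42.0, limma-voom 3.58.1), the replicate block and leaving out each library.

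The members, lists and motifs were chosen with earlier results of these data known. Named were all subunits, neighbours within 2000 bases, the 5 promoters nearest to EXOSC6, and of the cofactors those past the threshold and the highest and lowest. Nearest promoters were ranked by Euclidean distance of log2 CPM with a prior count of 2.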

Additional observations from a re-analysis of the deposited data

How the results depend on the processing

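Beside the 4 fits that each left out 1 library, 14 other fits were made, of which DESeq2 without independent filtering was chosen after seeing the data. A looser threshold and an order by nuclear share were also tried. The cause of a change was not tested unless stated. EXOSC6 led to the choice of the family, so its calls are no test. The count of called subunits (2, EXOSC5 and EXOSC6) was 9 with library totals, all but EXOSC6. It was 1 (EXOSC6) with upper quartile, limma-voom and loess with or without mitochondrial promoters. The same held at floors of 10 counts per library and 50 on the mean count. It was 0 with DESeq2 without independent filtering and changed without any 1 library. DESeq2 with that filtering left 9 of 10 subunits without an adjusted p, so no count is given. Of 23407 promoters, the fit under TMM called 577, library totals 16319, upper quartile 493 and loess 56. Limma-voom called 719 of them, the edgeR 4 form 673 and DESeq2 without independent filtering 52. Of 23305 promoters left without the mitochondrial ones, TMM called 576 and loess 35. The floor of 10 called 368 of 18494, and the floor of 50 called 218 of 15013. The count of called cofactors (0) was 22 with library totals, and 1 (NCBP1) without mitochondrial promoters, with the edgeR 4 form and at an adjusted p under 0.1. It was 0 in all fits without 1 library.

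Library totals are mostly mitochondrial and moved the median of all promoters to −0.78. With them EXOSC6 turned to −0.26, and the median of the other 9 subunits (−0.0041) became −0.80, as EXOSC2 turned to −0.66, EXOSC3 to −0.75, EXOSC4 to −0.65 and EXOSC8 to −0.73. EXOSC6 minus that median lay between 0.52 and 0.59 in all 14 fits. Scaling a library by 1 factor shifts EXOSC6 and the others alike, so fits that changed only such factors could hardly move it. Without 1 library EXOSC6 ranged from 0.41 to 0.69, its distance from the others from 0.42 to 0.68, and the median of the others from −0.023 to 0.017.

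Values near 0 changed sign without passing the threshold. EXOSC1 became 0.0058 with loess and 0.0034 with loess without mitochondrial promoters. EXOSC7 became 0.076 with upper quartile, 0.049 and 0.054 with the same loess fits, 0.022 with at least 10 counts, 0.067 with a mean of at least 50, 0.0015 with the edgeR 4 form and 0.0057 with DESeq2 without independent filtering, and lay between −0.073 and 0.089 without 1 library. EXOSC10 became 0.056, 0.014, 0.019, 0.0020 and 0.047 with upper quartile, both loess fits and both count filters. EXOSC5 kept its direction in every fit and was past the threshold in 6 of the 13 other fits that gave it an adjusted p. Library totals were among these 6. EXOSC5 was not past it with upper quartile, both loess fits, both count filters, limma-voom or DESeq2 without independent filtering.

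Replicate numbers were shared by the groups. Over 14976 promoters, the deviations of libraries with the same number correlated at 0.050, which with only 2 pairs was not treated as a pairing. With the replicate block, 488 of 23407 promoters were called. Among them were 2 subunits, EXOSC5 and EXOSC6, and 0 cofactors. EXOSC5 then had a log2 fold change of −0.62 (edgeR adjusted p 0.0304).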
